A study of Homo sapiens with 2 samples.

Results

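The genes described here are 10 genes of the NF-kB pathway in the human colorectal cancer cell line HT-29: NFKB1, NFKB2, RELA and RELB, the inhibitors NFKBIA and TNFAIP3, and the chemokine genes CXCL1, CXCL2, CXCL3 and CXCL8. They were listed by name, with earlier results of these data known, out of 20163 protein-coding genes of the GENCODE annotation of hg19. A SOX9 peak was assigned to a gene when its summit lay within 1 kb of one of its annotated transcription start sites (TSSs) or within 20 kb of the gene body, which gave 17 of the 17847 peaks in the deposited list. The study compared chromatin immunoprecipitated from untreated HT-29 cells with an antibody to SOX9 (SOX9 ChIP) with input DNA from the same line, taken with no antibody. There was 1 library of each, so replicate error is unknown for every value. The intervals given below are exact Poisson 95% intervals and cover counting error only. For a highest signal they do not allow for the choice of the highest bin, made separately in each library. Each library held 12320108 tags (aligned 50-nt reads) after the authors had downsampled the input. No expression was measured, so the labelled cell type was not checked by markers, and no stimulus of the NF-kB pathway was applied. In bulk chromatin, SOX9 on some of the cells and weaker SOX9 binding in all cells cannot be told apart.

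NF-kB is a dimer of Rel-family proteins. In resting cells, inhibitors of kappaB hold it in the cytoplasm. Cytokines and bacterial products activate a kinase complex that marks the inhibitor for destruction, and the freed dimer enters the nucleus and binds kappaB sites. Among its targets are its own inhibitors, which end the response, and chemokines that draw neutrophils, made by intestinal epithelium during infection and inflammation. AP-1 is a dimer of FOS and JUN proteins that often acts beside NF-kB at such genes, and SOX9 is an HMG-box factor of the stem cell zone of the intestinal crypt.

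The sequences under or near the SOX9 summits are shown first, to set the kind of site at each gene beside its values. In the first set, read from hg19 on the strand of the gene, capitals mark a site of the kappaB consensus within 100 bp of a SOX9 summit. The windows are chr10:104153994-104154023 (NFKB2), chr19:45504581-45504610 (RELB), chr14:35874017-35874046 (NFKBIA, minus strand), chr6:138188325-138188354 (TNFAIP3, with 2 sites in 1 run) and chr4:74904465-74904494 (CXCL3, minus strand).
NFKB2: gagaggcagcGGAAGCTCCCggcccggggt
RELB: gtgacgcgtgGGGGTTTTCCcgttccccag
NFKBIA: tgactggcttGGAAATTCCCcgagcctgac
TNFAIP3: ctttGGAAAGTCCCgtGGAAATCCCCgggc
CXCL3: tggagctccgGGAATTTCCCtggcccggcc

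The second set shows the AP-1 site (capitals) of CXCL8 at chr4:74606138-74606167, plus strand. This was the AP-1 site nearest to a SOX9 summit at any of the 10 genes.
CXCL8: aggaagtgtgaTGACTCAggtttgccctga

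The third set compares the 4 chemokine promoters. Capitals mark GGAATTTCC, the longest run of bases that the promoters of CXCL1, CXCL2, CXCL3 and CXCL8 (250 bp before to 50 bp after the TSS of the transcript tagged as canonical in GENCODE) had in common. The run was looked for after the peaks had been seen. The windows are chr4:74735022-74735051 (CXCL1, plus strand), chr4:74964971-74965000 (CXCL2, minus strand), chr4:74904466-74904495 (CXCL3, minus strand) and chr4:74606185-74606214 (CXCL8, plus strand).
CXCL1: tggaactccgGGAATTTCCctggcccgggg
CXCL2: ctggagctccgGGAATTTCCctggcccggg
CXCL3: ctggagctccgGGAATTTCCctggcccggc
CXCL8: tgcaaatcgtGGAATTTCCtctgacataat

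SOX9 peaks lay at the starts of 8 of the 10 genes. The exceptions were CXCL1, whose peak fell just outside the limit, and CXCL2, which had no peak. In the whole annotation, 44.8% of protein-coding genes had a summit within 1 kb of a TSS. Within 20 kb of the gene, 9 of the 10 genes had a peak, against 65.3% of protein-coding genes. In all, 10 of the 17 peaks were promoter peaks (summit within 1 kb of a TSS of the gene) and 7 lay away from those TSSs. Of the 17 summits, 6 were nearest to a TSS of a gene other than the listed one. All 17 peaks had an empirical FDR of 0 or 0.01%.

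The promoter peaks of these genes were modest in size. Their median was 35 tags, compared with 54 tags for the 9631 promoter peaks of the list and 45 for all peaks. For the whole list, a promoter peak had its summit within 1 kb of a TSS of any annotated gene, which is a wider rule. By that rule the assigned peaks 39 and 166 bp from SIPA1 starts and 310 bp from an FBXL15 start would count as well. They held 61, 47 and 58 tags and are not in the median of 35. Of the 10 promoter peaks of the listed genes, 7 were under the median of 54 and 3 were over it. The median fold enrichment over the local input, in contrast, was 10.2 for these promoter peaks and 10.1 for all promoter peaks. The highest signal in the interval, in tags extended to 150 bp per bin of 32 nt, had a median of 18 in SOX9 and 5 in input at these genes, against 21 and 6 over all promoter peaks.

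**Figure D1:**
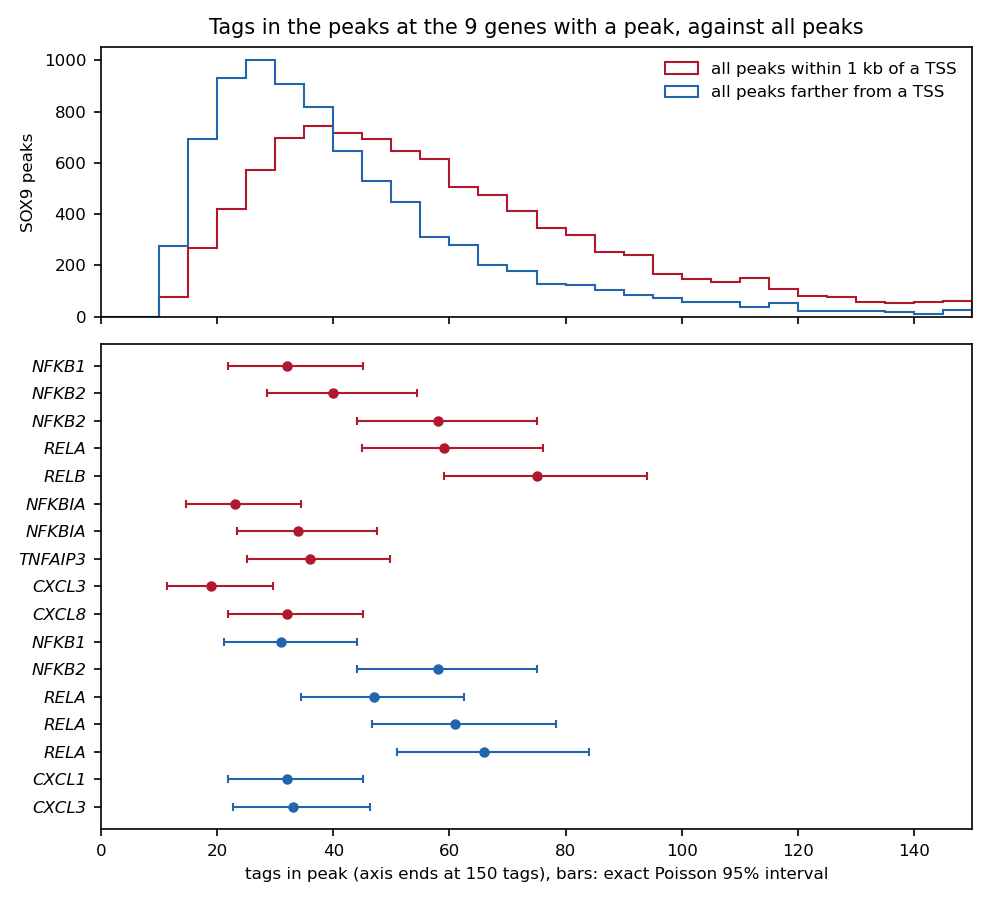
Top, number of SOX9 peaks by tags per peak (bins of 5 tags) for peaks within 1 kb of any annotated TSS (red) and all others (blue). Bottom, tags of the 17 peaks at the listed genes, with exact Poisson 95% intervals. Here red marks peaks within 1 kb of a TSS of the listed gene itself, and blue the others. The promoter peaks of the listed genes run from 19 tags at CXCL3 to 75 at RELB. Of these 10, 7 are under the median of 54 of all peaks within 1 kb of any TSS.

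Among the DNA-binding subunits, RELB carried the peak with the most tags of all 17. RELB is the subunit of the non-canonical pathway that pairs with p52. Its peak (chr19:45504254-45505596) held 75 tags (59.0 to 94.0) at a fold enrichment of 10.39, with a summit 165 bp upstream of the TSS, and SOX9 reached 26 against 8 in the input. The peak stood at percentile 79.3 of all peaks by tags, and 71.7% of promoter peaks had as many tags or fewer. The input over the surrounding 1 Mb was 1.99 times the autosomal median, the highest value among the 10 genes. The part of that local level in the tag number was not tested, while the fold enrichment is already relative to the local input. RELB was the gene with the most kinds of site under its summit. Besides the kappaB site 41 bp from the summit, the window of 100 bp to either side held a CRE site (TGACGTCA, the CREB and ATF element) 63 bp from it and CCAAT, the core of NF-Y sites, 84 bp from it. The CRE and CCAAT sites are shown in capitals from chr19:45504603-45504632 and chr19:45504624-45504653, plus strand.
RELB CRE: ttccccaggcgTGACGTCAcggcggggtgc
RELB CCAAT: gcggggtgcagaCCAATgggcgcgcaggcc

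RELA, which encodes p65, the subunit with the main activation domain, had a promoter peak of similar size. That peak (chr11:65429949-65430925) held 59 tags (44.9 to 76.1) at a fold enrichment of 6.82, the lowest of the 10 promoter peaks, with a SOX9 signal of up to 21 against 7 in the input. The input over 1 Mb was 1.82 times the autosomal median there. The summit lay 9 bp from the 5′ end of RELA and 3 bp from the start of RELA-DT, a divergent transcript, so the peak cannot be given to either start alone. A string of the SOX9 consensus (2 A or T bases, CAA, 1 A or T base and G) lay 91 bp from the summit. This was the only promoter peak of the 10 with the consensus within 100 bp, against 8.83% of all promoter peaks. On the other side of the gene, 3 peaks were assigned to RELA by distance alone, at 913, 6067 and 15408 bp from it, with 66, 47 and 61 tags. Their nearest TSSs were those of SIPA1, which encodes a GTPase activator of Rap1, at 2404, 166 and 39 bp.

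NFKB2, the gene of p100 and p52, had separate promoter peaks at its 5′ end and inside the gene. The 5′ peak (chr10:104153618-104154608) held 58 tags (44.0 to 75.0) with a summit 185 bp downstream of the first annotated TSS. It had a fold enrichment of 10.71 and the highest score of the 17 peaks, 217.72 (−10 times the log10 of the MACS p-value). This summit was 1410 bp upstream of the canonical TSS, so the peak marks the distal of the annotated starts. The internal peak (chr10:104159040-104159593) held 40 tags (28.6 to 54.5), lay in coding exon 14 of 23 and had a summit 6 bp upstream of an annotated internal TSS. Its signal of 26 in SOX9 against 6 in input was higher at the maximum than the 17 against 5 of the 5′ peak, which was broader, though the Poisson intervals (17.0 to 38.1 and 9.9 to 27.2) overlapped. A further peak of 58 tags lay 18627 bp from the gene and 310 bp downstream of the start of FBXL15, which encodes an F-box protein.

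At NFKB1, the gene of p105 and p50, the summit was in intron 1 and not at the 5′ end. The peak (chr4:103422702-103423294) held 32 tags (21.9 to 45.2) at a fold enrichment of 15.96, and its summit lay 541 bp downstream of the 5′ end and 27 bp upstream of another annotated TSS. SOX9 reached 21 there and the input 4. A second peak in intron 6 of 24 exons (chr4:103496808-103497447, 31 tags, 21.1 to 44.0) was 1714 bp from the nearest TSS and had a SOX9 consensus string 27 bp from its summit. That site is shown in capitals at chr4:103497170-103497199, plus strand.
NFKB1 intron 6: tgaatagacttCTTTGTTtcatgtacttta

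Of the 7 peaks away from TSSs of the listed genes, 2 held this consensus within 100 bp, at NFKB1 and downstream of CXCL3. The CXCL3 peak was the 1 peak of these 7 that lay farther than 3 kb from any TSS, a class in which 36.0% of all SOX9 peaks held the consensus, while the other 6 lay within 3 kb of one.

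**Figure D2:**
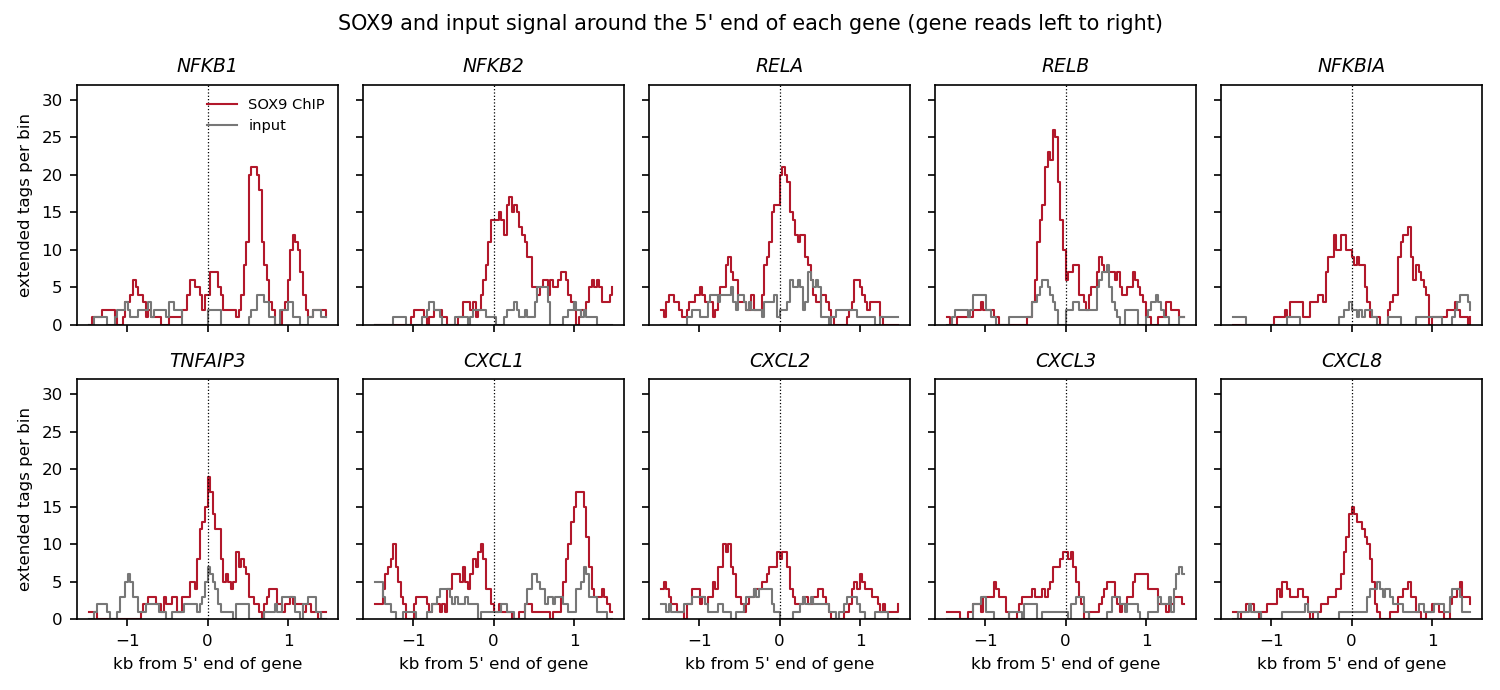
SOX9 (red) and input (grey) signal, in extended tags per bin of 32 nt, from 1.5 kb before to 1.5 kb after the 5′ end of each of the 10 genes (dotted line). SOX9 is highest upstream of RELB at 26, is displaced into the gene at NFKB1, is split over a pair of maxima at NFKBIA, and rises within CXCL1 beyond 1 kb.

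The inhibitor genes NFKBIA and TNFAIP3 had promoter peaks of 23 to 36 tags, with little input at NFKBIA and more at TNFAIP3. NFKBIA encodes IkappaB-alpha, which retains the p65 dimer in the cytoplasm and is itself induced by NF-kB. It carried a pair of promoter peaks. One (chr14:35873781-35874492) held 34 tags (23.5 to 47.5) with its summit 121 bp upstream of the 5′ end, and the other (chr14:35873040-35873528) held 23 tags (14.6 to 34.5) with its summit in intron 1, 666 bp downstream of the 5′ end and 57 bp from an internal TSS. Their fold enrichments were 14.29 and 17.14, the latter being the highest of the 17 peaks. The SOX9 maxima were 12 and 13 and the input maxima 3 and 1. Over 1 kb to either side of the 5′ end, NFKBIA had 63.4 SOX9 tags and 8.6 input tags (from the signal maps, 5 bins counted as 1 tag), a ratio of 7.37. The input over 1 Mb around NFKBIA was 0.77 times the autosomal median, the lowest among the 10 genes, and how far this low local level sets the ratio was not tested.

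TNFAIP3, which encodes A20, the ubiquitin-editing enzyme that shuts off NF-kB signalling, had the kappaB sites closest to a summit. The peak (chr6:138188003-138188755) held 36 tags (25.2 to 49.8) enriched 9.68-fold, its summit 10 bp upstream of the 5′ end, and SOX9 reached 19 against 7 in the input. The 2 kappaB sites shown above lay 8 and 4 bp from the summit by their centres, and the summit was the first base of the second site. An AP-1 site lay in the interval as well, 227 bp from the summit.

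Among the chemokine genes, SOX9 was found at the starts of CXCL8 and CXCL3. CXCL8 encodes interleukin-8, the main neutrophil attractant in humans. Its peak (chr4:74605915-74606542) held 32 tags (21.9 to 45.2) enriched 10.0-fold, its summit lying 20 bp upstream of the 5′ end and 70 bp upstream of the canonical TSS, and SOX9 reached 15 against 5 in the input. The AP-1 site lay 64 bp upstream of the summit and the GGAATTTCC run 17 bp upstream of it. The summit window thus held both elements, while no site of the full kappaB consensus was found there. The peak had the lowest GC content of the 10 promoter peaks, 44.8% in the 201 bp around the summit against a median of 67.2%, and 3.73% of promoter peaks had a GC content as low or lower.

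CXCL3 had the peak with the fewest tags of all 17. CXCL3 (GRO-gamma) attracts neutrophils through CXCR2, as CXCL1 and CXCL2 do. The peak (chr4:74904311-74904829) held 19 tags (11.4 to 29.7) enriched 8.34-fold, its summit lying 8 bp upstream of the 5′ end, and 3.55% of promoter peaks had as many tags or fewer. SOX9 reached 9 (4.12 to 17.1) and the input 3 (0.619 to 8.77), intervals that overlap. Its score of 79.92 was close to the lowest of the list, 70.01, which reflects the MACS p cut-off of 1e-07. A second peak (33 tags, 22.7 to 46.3) lay 12771 bp downstream of CXCL3, with RN7SL218P, a pseudogene, as the nearest annotated start at 12240 bp.

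At CXCL1 (GRO-alpha) the SOX9 peak was in the gene. It lay in intron 3 of 4 exons (chr4:74735848-74736518, 32 tags, 21.9 to 45.2, fold enrichment 7.67), 1075 bp downstream of the TSS, and SOX9 reached 17 against 7 in the input. No peak was called at the kappaB site of the CXCL1 promoter. Upstream of the gene SOX9 still reached 10, in the bin at −160 bp from the 5′ end, where the input was 1. In other bins of the same upstream 1 kb the input reached 4, as at −576 bp. At CXCL2 (GRO-beta) no peak was called either, and the nearest summit was 58764 bp from its TSS. The highest SOX9 signal within 1 kb of the CXCL2 5′ end was nevertheless 10 (4.8 to 18.4), against 4 (1.09 to 10.2) in the input. This was as high as the 9 at CXCL3, where a peak was called, and stood at percentile 85.0 of the 11128 protein-coding genes without a promoter peak. SOX9 binding at CXCL2 and at the CXCL1 promoter was thus not detectable by the peak list at this depth, which is not the same as absent. The promoters of these genes resemble each other, which can cost uniquely aligned reads. Pairwise identity over the aligned promoters was 82.5% for CXCL1 and CXCL3, 73.8% for CXCL2 and CXCL3 and 71.9% for CXCL1 and CXCL2, and 45.2% to 47.9% between any of these and CXCL8. Of the 50-base strings within 1 kb of the 5′ end, 92.88% were unique in hg19 at CXCL2, 93.08% at CXCL3 and 98.41% at CXCL1. At RELB, which had a promoter peak as CXCL3 did, the share was 93.29%. Inside these promoter peaks every such string was unique, 1294 of 1294 at RELB and 470 of 470 at CXCL3. The strings that were not unique did not lie within the peaks, so the peaks at RELB and CXCL3 cannot show whether reads were lost at CXCL2. Whether lost reads lowered the signal at CXCL1 or CXCL2 was not tested.

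The 5′ ends could also be ordered by the highest signal within 1 kb, whether or not a peak was called. RELB led with 26, followed by NFKB1 and RELA with 21 each, TNFAIP3 with 19, NFKB2 with 17, CXCL8 and CXCL1 with 15 each, NFKBIA with 13, CXCL2 with 10 and CXCL3 with 9. The Poisson intervals of every pair of neighbours overlapped, and those of the first (17.0 to 38.1) and the last (4.12 to 17.1) met at their ends, so neighbours in the order are not told apart at this depth. The value of CXCL1 came from the flank of the peak inside the gene. Over all protein-coding genes the median was 9 in SOX9 and 4 in input, and the input maxima of the 10 genes lay between 3 and 8. Counting all tags within 1 kb, each of the 10 genes had more SOX9 than input tags, with ratios from 1.66 at CXCL1 and 2.2 at RELA to 7.37 at NFKBIA and a median of 2.9. The median ratio was 2.67 for genes with a promoter peak and 1.29 for genes without one.

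**Figure D3:**
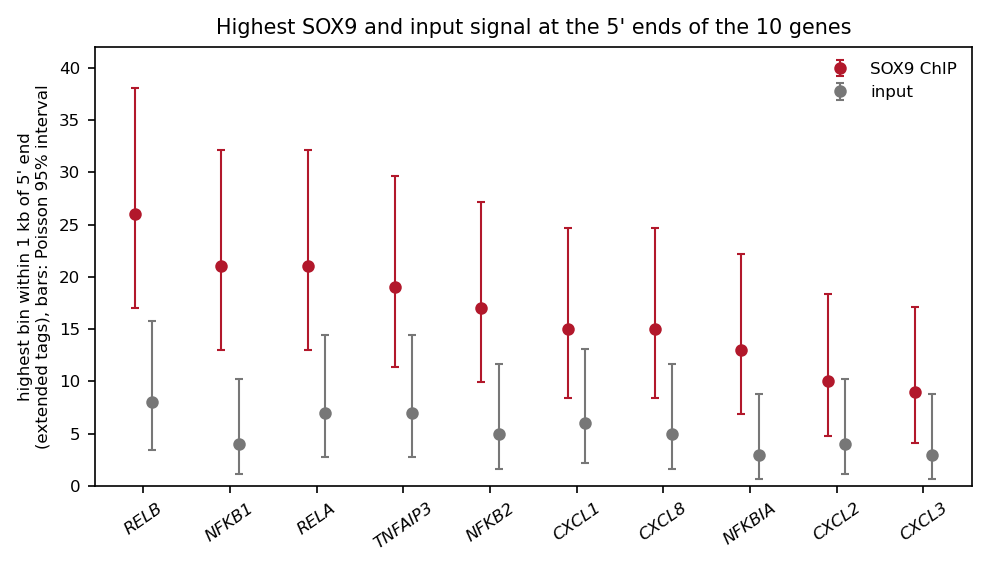
Highest SOX9 (red) and input (grey) signal in a bin of 32 nt within 1 kb of the 5′ end of each gene, in extended tags, with exact Poisson 95% intervals. Genes are ordered from RELB at 26 to CXCL3 at 9, and the SOX9 and input intervals are separate at RELB and NFKB1 and overlap at the other 8 genes. Each value is the highest bin of its own library, so an overlap does not compare the whole window. Over that window all 10 genes had more SOX9 than input tags.

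The sites under the summits differed by kind. An AP-1 site (TGACTCA or its complement TGAGTCA) lay within 100 bp of 1 of the 17 summits, that of CXCL8, against 12.0% of all SOX9 peaks. Among promoter peaks this is 1 of 10, against 4.43% of all promoter peaks. In the whole interval, 4 of the 17 peaks held an AP-1 site, close to the 21.9% of all peaks. Besides CXCL8 these were the promoter peaks of TNFAIP3, RELB (at 657 and 772 bp from the summit) and RELA. At RELA, AP-1 sites lay at 423, 460 and 501 bp from the summit, inside the gene. These 3 sites are shown in capitals on the minus strand, from chr11:65430115-65430144, chr11:65430078-65430107 and chr11:65430037-65430066.
RELA AP-1 at 423 bp: cggggaggggtcTGACTCAgtttcccctct
RELA AP-1 at 460 bp: gggggtggccctTGACTCAgcatcctccct
RELA AP-1 at 501 bp: cagagggaacctTGACTCAgtttccctcca

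A kappaB consensus site lay within 100 bp of 5 of the 17 summits, against 6.62% of all SOX9 peaks. All 5 were promoter peaks, 5 of 10 against 8.47% of all promoter peaks, and they belonged to 5 genes (NFKB2, RELB, NFKBIA, TNFAIP3 and CXCL3). NFKBIA, TNFAIP3 and CXCL3 are textbook targets of NF-kB. In the 250 bp before to 50 bp after the canonical TSS, 8 of the 10 genes had a kappaB site, against 12.6% of 19881 protein-coding genes with such a transcript. The genes were listed for their place in the NF-kB pathway, so these counts of kappaB sites are not independent of the list. A link between SOX9 summits and kappaB sites was not tested. The canonical promoter site of NFKB1 is shown in capitals at chr4:103422457-103422486, plus strand, and lay before the start of the NFKB1 peak at 103422702. At NFKB2, CXCL1 and CXCL2 the sites of the canonical promoter were likewise outside any peak, and the NFKB2 site near a summit was another one.
NFKB1 promoter: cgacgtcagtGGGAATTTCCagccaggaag

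The GGAATTTCC run, an exact string taken from the chemokine promoters, was present within 100 bp of the summit in 0.387% of all peaks and 0.27% of promoter peaks. These shares are not comparable with those of the consensus, which allows several bases at some positions. At CXCL3 it was 52 bp from the summit. In an AP-1 search over the same promoter windows, CXCL8 was the 1 gene of 10 with a site, against 3.56% of protein-coding genes. CCAAT lay within 100 bp of 1 of the 10 promoter summits, that of RELB, against 30.0% of all promoter peaks. It also lay 64 bp from the summit of the peak 913 bp from RELA. A match of letters is a description of the sequence and not evidence that a factor was bound there.

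The chemokine genes lie in a cluster on chromosome 4, and SOX9 peaks were spaced through it. From 20 kb before CXCL8 to 20 kb beyond CXCL2 the cluster spanned 399 kb with 9 chemokine genes and 6 peaks, 15.0 peaks per Mb compared with 3.87 for chromosome 4. The span was bounded by listed genes, and 9631 of all 17847 peaks lay within 1 kb of a TSS. The part of gene density in the number of peaks per Mb was not tested. Of the 6 peaks, 4 were those of CXCL8, CXCL1 and CXCL3 described above. The others were a peak of 46 tags (chr4:74641842-74642687, fold enrichment 6.35), 36.0 kb beyond the CXCL8 start, and one of 35 tags (chr4:74870883-74871700, fold enrichment 11.91) with 2 SOX9 consensus strings within 100 bp of its summit. Both lay over 1 kb from any annotated TSS. The peak of 35 tags lay 6971 bp from the TSS of CXCL5 and 17458 bp from that of PPBP, within 20 kb of both genes. The cluster's other neutrophil chemokine genes had SOX9 signal near the input. The highest SOX9 and input signals within 1 kb were 4 and 2 at CXCL5, 5 and 7 at CXCL6, and 2 and 3 at PPBP, and none of the 3 had a promoter peak. The receptor genes CXCR1 and CXCR2, on another chromosome, had maxima of 2 and 2 and of 2 and 3, also without a peak. PF4 had 27.2 SOX9 tags and 9.8 input tags within 1 kb without a peak, and is named after its values were seen. The input over 1 Mb was 1.37 to 1.44 times the autosomal median at the 4 listed chemokine genes.

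**Figure D4:**
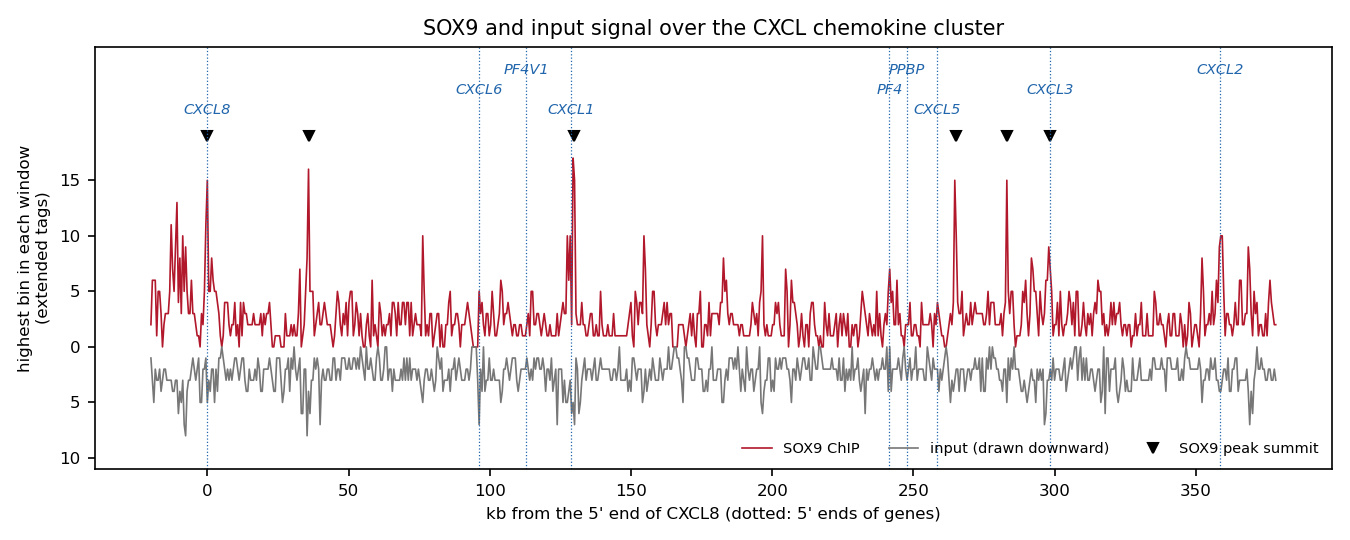
Highest SOX9 signal (red, upward) and input signal (grey, downward), in extended tags, in windows of 16 bins of 32 nt over the CXCL cluster, by distance in kb from the 5′ end of CXCL8. Triangles mark the 6 SOX9 summits, and dotted lines the 5′ ends of the 9 genes. SOX9 stands above the surrounding signal at CXCL8 and CXCL1, while CXCL6, PPBP and CXCL5 have no promoter peak.

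In the wider pathway, the share of genes with a SOX9 promoter peak was close to that of all protein-coding genes when every annotated TSS counted. Of 56 other pathway genes, 24 (42.9%) had a promoter peak, close to the 44.8% of all protein-coding genes, and 38 (67.9%) had a peak within 20 kb, close to 65.3%. Counting only the 5′ end of the gene record in place of every annotated TSS, 15 (26.8%) had a promoter peak, against 38.1%. Grouped by role after the values had been seen, promoter peaks were present at 3 of 5 genes of other subunits and inhibitors, 5 of 8 of the kinase complex and its activators, 9 of 17 receptors and adaptors, 7 of 11 ubiquitin enzymes and A20 partners, and 0 of 15 cytokine, chemokine and adhesion genes. With the 5′ end alone these counts were 2, 3, 4, 6 and 0. In that last group the highest SOX9 signal at the 5′ end had a median of 4 and the input one of 3. Within 20 kb of the gene, 6 of its 15 genes had a peak. As examples chosen after their values were seen, TNF had 5 and 3, IL6 had 4 and 7, and IL1B had 3 and 2. ICAM1, an adhesion molecule for leukocytes, had the highest signal of the group, 14 against 6, without a promoter peak. Whether CXCL8 and CXCL3, which had a promoter peak, differ from this group was not tested.

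At the 24 genes with a promoter peak, the promoter peak with the most tags had a median of 57.5 tags over genes, and the largest exceeded those of the 10 listed genes. NFKBIB, which encodes IkappaB-beta, had 194 tags, enriched 19.48-fold, and its highest SOX9 signal was 95 against 10 in the input. Its summit was 152 bp inside the gene and 10 bp from a start of its neighbour SIRT2. TRAF2, an adaptor of the TNF receptor, had 171 tags at a fold enrichment of 33.85, at an internal TSS 4411 bp from its 5′ end. The highest signal in that peak was 111 against 10, while within 1 kb of the TRAF2 5′ end it was 6 against 6. NFKBIZ, a nuclear protein of the inhibitor family, had 112 tags, also at an internal TSS, 21125 bp from its 5′ end. MAP3K14, the kinase NIK of the non-canonical pathway, had 98 tags with a summit 174 bp upstream. RIPK1, a kinase of the TNF receptor complex, had 89 tags, with a summit 5229 bp downstream of its 5′ end and 336 bp from its nearest own TSS. BIRC2, the ubiquitin ligase cIAP1, had 82 tags with a summit 37 bp upstream of its 5′ end. For RIPK1 and BIRC2, the nearest TSS to the summit was that of an unnamed GENCODE gene, at 159 and 36 bp. The input over 1 Mb was 1.81 times the autosomal median at NFKBIB, 1.33 at TRAF2 and 1.56 at NFKBIZ. It was 1.06 at MAP3K14, 1.31 at RIPK1 and 1.71 at BIRC2. The part of these local levels in the tag numbers was not tested. IKBKB of the kinase complex and the subunit gene REL, also chosen after their values were seen, had no promoter peak. Their highest signals within 1 kb of the 5′ end were 8 against 5 and 14 against 6. The input over 1 Mb was 0.437 times the autosomal median at IKBKB and 1.05 times at REL. How far the low local level at IKBKB limits its signal or a peak call was not tested.

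**Figure D5:**
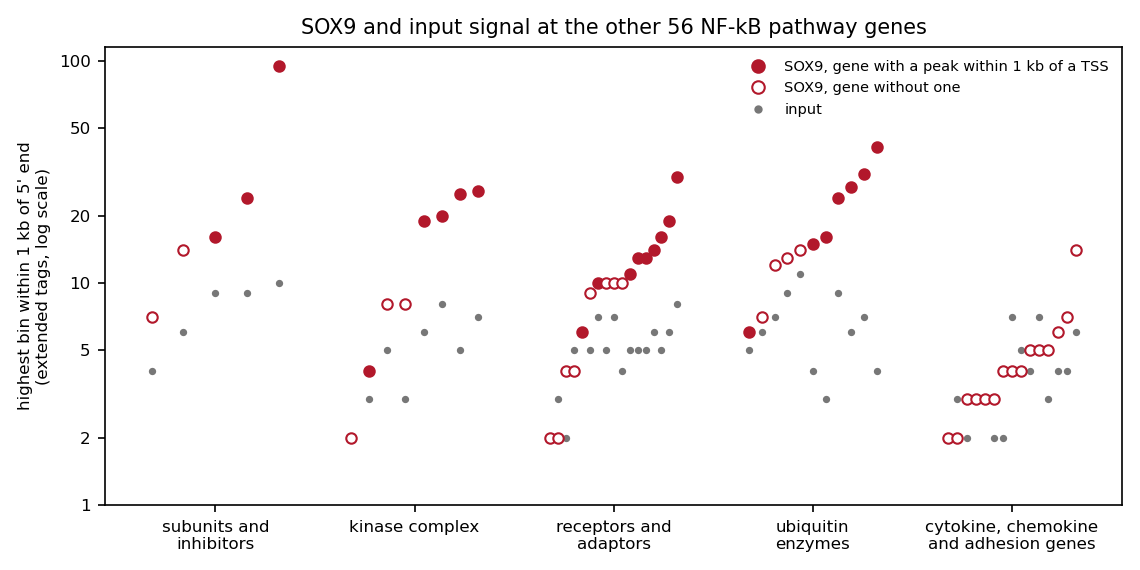
Highest SOX9 (red) and input (grey) signal within 1 kb of the 5′ end of the other 56 pathway genes, in extended tags on a log axis, by role. Filled circles are genes with a SOX9 peak within 1 kb of a TSS. All 15 cytokine, chemokine and adhesion genes are open circles, and NFKBIB is highest at 95.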

How the data were processed

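ChIP-seq of SOX9 and of input DNA in HT-29 cells was analysed from 1 library each. The authors aligned reads to hg19 with BWA (named in the submitters' processing notes without a version), downsampled the input and called peaks with MACS (p cut-off 1e-07). In the deposited peak table, tags are counts of ChIP reads, the score is −10 times the log10 of the p-value, fold enrichment is a ratio to the local input and the FDR is a percent. Start, end, length and summit are deposited positions in bp. The deposited signal counts tags, each lengthened to 150 bp, per bin (32 nt), without further scaling. The interval list was not used, since the peak table holds it.

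Summits were placed on GENCODE release 44 mapped to hg19. Sites had to lie wholly within 100 bp of the summit, on either strand. Percentiles are over all peaks or protein-coding genes, and promoter identity is from global alignment. The genes and lists were chosen with earlier results of these data known. Named genes are the 10 listed, the 6 other pathway genes with most promoter tags, other neutrophil chemokines and receptors, and genes nearest to an assigned summit, while PF4, TNF, IL6, IL1B, ICAM1, IKBKB and REL were named after their values were seen. No test was run, since each condition had 1 library. Scripts were checked on simulated data. Tools were Python 3.11.15, NumPy 2.4.6, pandas 2.3.3, SciPy 1.17.1, Biopython 1.88 and matplotlib 3.10.9.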

Additional observations from a re-analysis of the deposited data

How the results depend on the processing

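With 1 library per condition, no library could be left out, no paired analysis was possible because each group holds 1 sample, and depth limits what can be called at low genes such as CXCL2 and CXCL3. Listed genes whose promoter held a summit numbered 8 and ranged from 7 to 9. It lost CXCL3 when only scores of at least 100 were kept (7, against 35.9% of protein-coding genes), lost NFKB2 when only the canonical TSS counted, an alternative chosen after seeing the data (7, against 40.8%), and gained CXCL1 at 3 kb (9, against 47.5%). For the other pathway genes, 24 fell to 15 when only the 5′ end of the gene record counted (against 38.1%), with TRAF2, NFKBIZ and RIPK1 among those lost. Peaks assigned within 50 kb were 31 in place of 17. AP-1 sites were found at 0 peaks within 50 bp, at 4 in the whole interval (against 21.9% of all peaks) and at 2 when the CRE site was included (against 13.5%), in place of 1. Sites of the kappaB consensus were found at 9 peaks in the whole interval (against 28.1%) in place of 5, at 4 within 50 bp (against 3.02%) and, chosen after seeing the data, at 6 with a looser site (against 8.67%). Of the 30 alternative counts, 24 stayed within 1.5 times the value reported.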
